A study of Mus musculus with 768 samples.

Results

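The 10 genes described here are the TGF-beta ligands *Tgfb1*, *Tgfb2* and *Tgfb3*, the activin chains *Inhba* and *Inhbb*, the receptors *Tgfbr1*, *Tgfbr2* and *Tgfbr3*, the co-receptor *Eng* and the matrix gene *Tgfbi*. They were taken by symbol from the 24490 endogenous genes of the deposited tables, and all 10 were found. They were followed through 768 wells of Smart-seq2, a method that sequences the full-length messenger RNA of 1 sorted cell per well. The cells came from mammary tumors of 14-week-old FVB/N-Tg(MMTVPyVT)634Mul/J mice, in which the MMTV promoter drives the polyoma middle T oncogene in the mammary epithelium, and were sorted as EpCAM-, CD45-, CD31- and NG2- to leave cancer-associated fibroblasts (CAFs). There were 2 tumors with 384 wells each and no tumor-free group. Each tumor filled 1 plate, so tumor and plate cannot be told apart, and the tumor is the replicate (n = 2).

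TGF-beta ligands are secreted in a latent form that is stored in the matrix and has to be released. The free dimer binds the type II receptor Tgfbr2, which recruits and phosphorylates the type I receptor Tgfbr1, and the signal passes through Smad2, Smad3 and Smad4 to genes of matrix, contraction and growth arrest. Activins are dimers of the beta chains encoded by *Inhba* and *Inhbb*. They use their own receptors and the same Smads. In tumors, TGF-beta is best known in fibroblasts as an inducer of collagen and of contractile actin.

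Of the 768 wells, 727 had at least 10000 endogenous reads (reads on mouse genes, not on the ERCC spike-in RNAs) and were kept. A well was called vascular when its *Rgs5* RPKM (reads scaled for gene length and for the depth of the well) was at least 8 times its *Dcn* RPKM, with 1 added to both, and matrix when the reverse held. *Rgs5* is a mural cell gene and *Dcn* encodes the matrix proteoglycan decorin, and neither is among the 10 genes. This gave 514 vascular wells (267 and 247 in tumors 1 and 2), 168 matrix wells (84 and 84) and 45 that were neither (22 and 23). Only 28 wells lay within 1 log2 unit of the vascular limit and 7 within 1 of the matrix limit. Apart from *Rgs5*, the vascular markers of a list of 10 reached an RPKM of 1 in 72.2 to 98.1% of the vascular and 11.9 to 62.5% of the matrix wells, and apart from *Dcn*, the matrix markers of another 10 in 72.6 to 100% of the matrix and 3.1 to 50.6% of the vascular wells, so single markers separated the classes unevenly. *Pdgfra* did so in 90.5% of the matrix and 3.1% of the vascular wells, and *Serpinf1* in 100% and 50.6%. Of the 45 remaining wells, 20 carried at least 5 of 10 markers of developmental CAFs. The median well had 196500 endogenous reads in the vascular and 262024 in the matrix class, and the median ERCC share was 13.8% and 6.23%, so matrix wells held more endogenous RNA relative to the spike-in. Smart-seq2 reads carry no molecular identifiers, and all intervals below are exact binomial 95% intervals that cover counting error only.

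*Tgfbr2*, *Tgfbr3* and *Tgfbi* were higher in matrix wells and *Eng* was higher in vascular wells. To test this, reads were summed per class and tumor, and the 4 sums were compared with edgeR's quasi-likelihood test over 11620 genes. At a Benjamini-Hochberg adjusted p of at most 0.05, 4 of the 10 genes were called, 3 of them higher in matrix wells. The background was high, since 16.1% of all genes tested were called, 9.48% as higher in matrix and 6.57% as higher in vascular wells. The median log2 fold change of the 10 genes was 1.28, and that of all genes was -0.04. With the tumor as a block, which uses that both classes of a tumor came from the same mouse, *Inhba* and *Inhbb* were called as well, giving 6 of 10 genes against 18.1% of all genes.

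**Figure D1:**
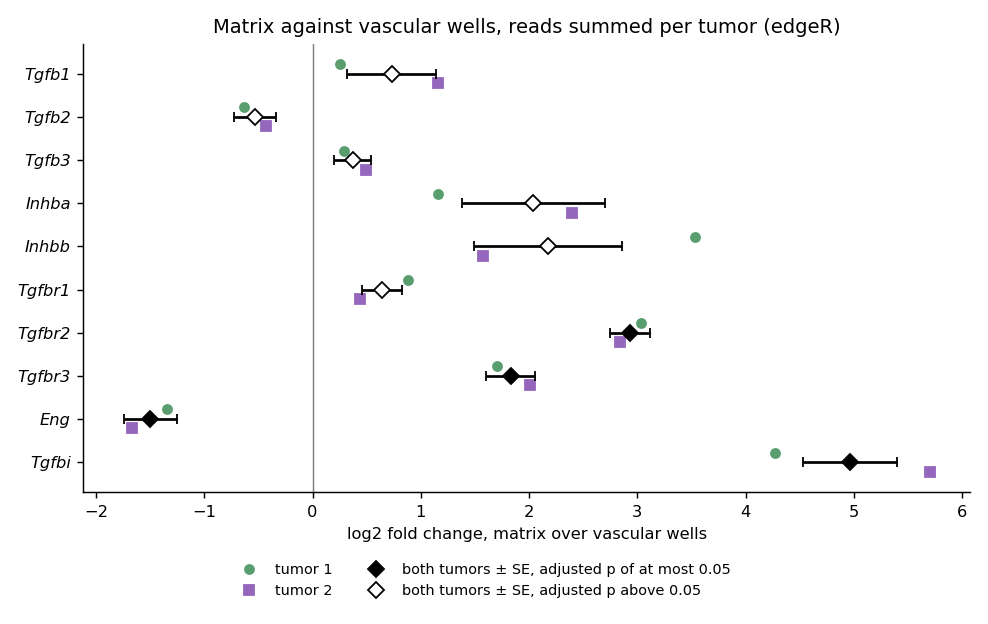
Log2 fold change of each gene in matrix over vascular wells (horizontal axis), from reads summed per tumor. Diamonds with bars are the edgeR estimate ± SE over 2 tumors, filled where the adjusted p was at most 0.05, and circles and squares are the tumors taken alone. *Tgfbi*, *Tgfbr2* and *Tgfbr3* lie to the right and *Eng* to the left, with the tumors on the same side of 0 for all 10 genes.

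*Tgfbr2*, the type II receptor that binds the ligand, showed the clearest difference. Its mean level was 35.3 and 32.2 RPKM in the vascular wells of tumors 1 and 2, and 260 and 215 RPKM in the matrix wells. The tumors of a class lay close together and the classes did not overlap. Summed reads, as CPM (scaled to the library total, here after TMM normalisation), were 185 and 169 in vascular and 1491 and 1209 in matrix wells, a log2 fold change of 2.93 ± 0.19 (SE), or 7.63-fold (edgeR, adjusted p = 0.000843). Among single wells the levels overlapped. The median matrix well, at 218 RPKM, lay just under the highest vascular well at 225 RPKM, and 5 of the 168 matrix wells had no read. After thinning every well to 50000 reads, 100% and 96.2% of the matrix wells (95.5 to 100% and 89.4 to 99.2%) still had a *Tgfbr2* read, against 61.7% and 65.2% of the vascular wells (55.5 to 67.7% and 58.6 to 71.4%).

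**Figure D2:**
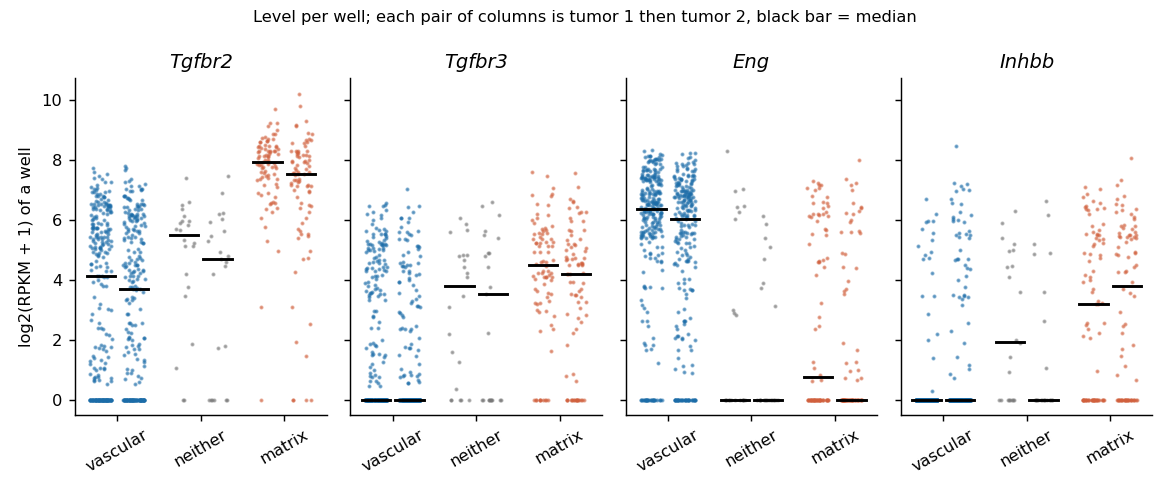
Level of 4 genes in every kept well, as log2(RPKM + 1) on the vertical axis, for vascular, neither and matrix wells. Each point is 1 well, the left and right column of a class are tumors 1 and 2, and black bars are medians. Matrix wells sit high for *Tgfbr2* and *Tgfbr3*, vascular wells for *Eng*, and *Inhbb* is at 0 in most vascular wells.

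*Tgfbr3* encodes betaglycan, a co-receptor that presents ligand to Tgfbr2. It averaged 10.9 and 7.10 RPKM in vascular and 33.7 and 27.2 RPKM in matrix wells, again without overlap between the tumors of the classes. The log2 fold change was 1.83 ± 0.23 (edgeR, adjusted p = 0.00586). At equal depth it was read in 39.5% and 29.5% of the vascular wells and in 85.0% and 76.2% of the matrix wells.

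*Tgfbr1*, the type I receptor that carries the signal inward, had closer means in the classes. Mean levels were 19.7 and 28.6 RPKM in vascular and 32.1 and 28.9 RPKM in matrix wells, so that the means of tumor 2 were alike, although its median wells were at 1.17 and 21.2 RPKM. At equal depth *Tgfbr1* was read in 43.4% and 48.5% of the vascular wells and in 72.5% and 68.8% of the matrix wells. Summed reads gave a log2 fold change of 0.64 ± 0.19, which did not pass the test (edgeR, adjusted p = 0.0826). It passed with DESeq2 (0.65, adjusted p = 0.0167), with limma on mean log2(RPKM + 1) (1.11, adjusted p = 0.0084) and in edgeR with the ERCC reads as library size (1.34, adjusted p = 0.00832). These settings called 25.0%, 31.4% and 37.7% of all genes, against 16.1% in the main test. The ERCC reads also moved the median log2 fold change of all genes to 0.67. Both signalling receptors were read in the same well in 28.9% and 33.5% of the vascular wells at equal depth, and in 72.5% and 67.5% of the matrix wells. These values were close to the products of the shares of each receptor alone, 26.8% and 31.6% in vascular and 72.5% and 66.2% in matrix wells.

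*Eng* encodes endoglin, a co-receptor for TGF-beta and BMP ligands that is best known from endothelial cells. Vascular wells averaged 97.4 and 77.3 RPKM in tumors 1 and 2, and matrix wells 32.2 and 21.4 RPKM. The vascular wells of both tumors were above the matrix wells of both, and the log2 fold change was -1.50 ± 0.25 (edgeR, adjusted p = 0.0146). At equal depth *Eng* was read in 90.2% and 84.1% of the vascular wells and in 47.5% and 35.0% of the matrix wells. When the ERCC reads served as the library size, which raised the median log2 fold change of all genes from -0.04 to 0.67, the value for *Eng* was -0.78 and the adjusted p was 0.0554 (edgeR). The 10 endothelial markers of a fixed list summed to 1103 and 1185 CPM in vascular and to 18.7 and 42.9 CPM in matrix wells. *Esam*, *Flt1* and *Emcn* reached an RPKM of 1 in 89.1%, 69.3% and 43.0% of the vascular wells, whereas *Pecam1* and *Cdh5*, which define endothelial cells, did so in none of the 514, and *Kdr* in 0.195%. *Vwf* did so in 8.17% and *Egfl7* in 7.59%. Wells with a read of *Pecam1*, *Cdh5*, *Kdr*, *Tie1* or *Cldn5*, 4 of the 514, held 1.73% of the *Eng* reads of the vascular class. This share leaves out *Esam*, *Flt1*, *Emcn*, *Vwf* and *Egfl7* of the same list, so its size follows from the choice of markers. The part of endothelial RNA in the *Eng* difference was not tested.

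*Tgfbi*, a secreted matrix protein named for its induction by TGF-beta, had the largest fold change of the 10 genes in summed reads but was read in few cells. Its mean level was 1.68 and 0.723 RPKM in vascular and 20.9 and 41.8 RPKM in matrix wells, and the log2 fold change was 4.96 ± 0.43 (edgeR, adjusted p = 0.00189). It was read in 2.6% and 3.6% of the vascular wells and in 28.6% and 39.3% of the matrix wells. In tumor 2, 1 well held 44.2% of the matrix reads, with 1694 RPKM, while the median matrix well had none. With the *Tgfbi* reads of the highest well of each class and tumor left out, the log2 fold change was 5.51 (edgeR, adjusted p = 0.000849). That step removed 57.6% and 48.7% of the vascular and 17.3% and 44.2% of the matrix *Tgfbi* reads in tumors 1 and 2. It took the larger share from the vascular class, so the rise does not show a larger difference. On mean log2(RPKM + 1), where wells count equally, the difference was 1.69 for *Tgfbi*, against 3.99 for *Tgfbr2* and -3.04 for *Eng*, and all 3 passed the test in limma. *Tgfbi* is also abundant in macrophages. The 8 immune markers summed to 2.59 and 8.18 CPM in vascular and 13.8 and 10.8 CPM in matrix wells. *Csf1r* reached an RPKM of 1 in 10.1% of the matrix and 0.584% of the vascular wells, and *Cd68* in 7.14% and 2.53%. *C1qa* did so in 3.57% and 0.195%, *C1qb* in 2.38% and 0.195%, and *Fcer1g* in 1.79% and 0.973%. *Lyz2* did so in 1.79% and 1.17%, *Ptprc* in 0% and 0.195%, and *Emr1* in no well. Reads of any of the 8 were found in 0 of the 16 *Tgfbi*-positive vascular wells and in 28 of all 514. They were found in 16 of the 57 *Tgfbi*-positive matrix wells, which held 43.9% of the class's *Tgfbi* reads, and in 38 of all 168. Reads of any of 8 epithelial markers were found in 28 of the 57 wells, which held 45.9% of the *Tgfbi* reads, and in 67 of all 168. The part of immune or epithelial RNA in the difference was not tested.

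The bases upstream of the start of 3 of the called genes are shown, because these genes moved together (*Tgfbr2* and *Tgfbi*) or against each other (*Eng*). Each line gives the 250 bases before the RefSeq start in GRCm38.p6, the assembly of mm10, 5′ to 3′ on the strand of the gene. They lie at chr9:116175364-116175613 (minus strand) for *Tgfbr2*, at chr13:56609336-56609585 (plus strand) for *Tgfbi* and at chr2:32646345-32646594 (plus strand) for *Eng*. Capitals mark the core Smad element CAGAC or its reverse complement GTCTG, and the GC box GGGCGG or its reverse complement CCGCCC.
Tgfbr2: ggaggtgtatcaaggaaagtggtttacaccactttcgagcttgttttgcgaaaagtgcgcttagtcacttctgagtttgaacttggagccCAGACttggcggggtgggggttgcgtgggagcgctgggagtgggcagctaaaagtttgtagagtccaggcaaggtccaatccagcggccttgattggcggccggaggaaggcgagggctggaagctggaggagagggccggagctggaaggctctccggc
Tgfbi: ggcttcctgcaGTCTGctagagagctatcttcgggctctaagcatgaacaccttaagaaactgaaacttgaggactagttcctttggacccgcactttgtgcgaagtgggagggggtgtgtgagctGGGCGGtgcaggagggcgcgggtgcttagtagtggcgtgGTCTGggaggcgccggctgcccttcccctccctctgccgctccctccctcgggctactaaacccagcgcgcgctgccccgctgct
Eng: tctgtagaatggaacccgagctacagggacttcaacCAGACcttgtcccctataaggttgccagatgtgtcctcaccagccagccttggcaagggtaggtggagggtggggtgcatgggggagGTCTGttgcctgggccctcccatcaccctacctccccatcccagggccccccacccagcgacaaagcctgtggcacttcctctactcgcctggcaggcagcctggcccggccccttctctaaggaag
The letters CAGAC or GTCTG occurred 1 time before *Tgfbr2* and 2 times each before *Tgfbi* and *Eng*. They are short letters found in 42.2% of all 32851 promoter windows of this length in the table, and the GC box, found 1 time before *Tgfbi* and in none of the other pair, in 32.7%. The AP-1 letters TGANTCA (6.75% of all windows) and TATAAA (12.4%), searched on both strands, occurred in none of the 3. Of the 10 genes 8 were in the promoter table, and a match is a description of letters, not of binding.

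Among the TGF-beta ligands, *Tgfb3* was the most abundant per length in both classes. Its mean level was 73.5 and 56.3 RPKM in vascular and 82.7 and 81.3 RPKM in matrix wells. The matrix value was the higher in both tumors, but the vascular tumors lay apart from each other, and the log2 fold change of 0.37 ± 0.17 did not pass the test (edgeR, adjusted p = 0.226). It passed with limma on mean log2(RPKM + 1) (1.37, adjusted p = 0.00336), which weights wells equally, and in edgeR with the ERCC reads as library size (1.09, adjusted p = 0.00713). These settings called 31.4% and 37.7% of all genes, and the ERCC reads moved the median log2 fold change of all genes to 0.67. At equal depth *Tgfb3* was read in 66.0% and 63.9% of the vascular wells (59.9 to 71.8% and 57.3 to 70.1%) and in 82.5% and 85.0% of the matrix wells (72.4 to 90.1% and 75.3 to 92.0%). *Tgfb3* also had the widest range among vascular wells, from 0 over a median of 22.8 to 2216 RPKM.

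*Tgfb2* was the only ligand with the higher mean in vascular wells, at 15.4 and 15.4 RPKM against 9.26 and 10.9 RPKM in matrix wells. The log2 fold change was -0.53 ± 0.19 (edgeR, adjusted p = 0.138), and it turned to 0.17 when the ERCC reads set the library size. At equal depth the intervals of the shares overlapped, with 39.5% and 44.5% of the vascular and 35.0% and 33.8% of the matrix wells.

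*Tgfb1*, the isoform most often studied in tumors, was the lowest of the ligands. Its mean level was 4.50 and 3.99 RPKM in vascular and 4.78 and 6.90 RPKM in matrix wells, with a log2 fold change of 0.73 ± 0.41 (edgeR, adjusted p = 0.312). In tumors 1 and 2 alone the log2 fold change was 0.25 and 1.16. With the ERCC reads as library size it was 1.44 (edgeR, adjusted p = 0.039), where the median of all genes was 0.67. *Tgfb1* passed under no other alternative. It was read in 48.7% and 41.3% of the vascular wells, and in 26.2% and 26.4% after thinning to 50000 reads. Any of the 3 ligands was read at equal depth in 81.6% and 81.1% of the vascular and in 93.8% and 91.2% of the matrix wells.

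The activin chains were read in a minority of vascular wells and were higher in matrix wells of both tumors. *Inhbb* stood at 2.58 and 10.4 RPKM in vascular and at 25.9 and 30.2 RPKM in matrix wells. The vascular tumors differed by more than the matrix tumors, but the classes did not overlap. The log2 fold change was 2.17 ± 0.68 (edgeR, adjusted p = 0.0967), and 2.54 with the tumor as a block (edgeR, adjusted p = 0.0283). It was 3.53 in tumor 1 alone and 1.57 in tumor 2 alone. At equal depth *Inhbb* was read in 7.0% and 18.5% of the vascular wells (4.2 to 10.9% and 13.7 to 24.2%), and in 56.2% and 61.2% of the matrix wells (44.7 to 67.3% and 49.7 to 71.9%).

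*Inhba*, the chain of activin A, had mean levels of 10.2 and 19.9 RPKM in vascular and 23.4 and 76.0 RPKM in matrix wells. In tumor 2, 1 matrix well with 1873 RPKM held 30.1% of the reads of its class. The log2 fold change was 2.04 ± 0.66 (edgeR, adjusted p = 0.107) and 1.77 with the tumor as a block (edgeR, adjusted p = 0.0269). With the *Inhba* reads of the highest well of each class and tumor left out, the log2 fold change was 1.84 (edgeR, adjusted p = 0.0939). It was 1.16 in tumor 1 alone and 2.40 in tumor 2 alone. At equal depth the shares were 12.9% and 19.8% of the vascular and 32.5% and 37.5% of the matrix wells. Reads of any of the 8 epithelial markers were found in 46 of the 106 matrix wells with an *Inhbb* read, which held 55.1% of its reads there, and in 24 of the 71 such vascular wells, which held 47.5%. For *Inhba* they were found in 32 of 72 matrix wells, with 24.1% of the reads, and in 19 of 86 vascular wells, with 32.0%. Over all wells, 67 of 168 matrix and 113 of 514 vascular wells had such a read, and its part in the differences was not tested. At equal depth both chains were read together in 0.78% and 7.05% of the vascular and 21.2% and 28.8% of the matrix wells.

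**Figure D3:**
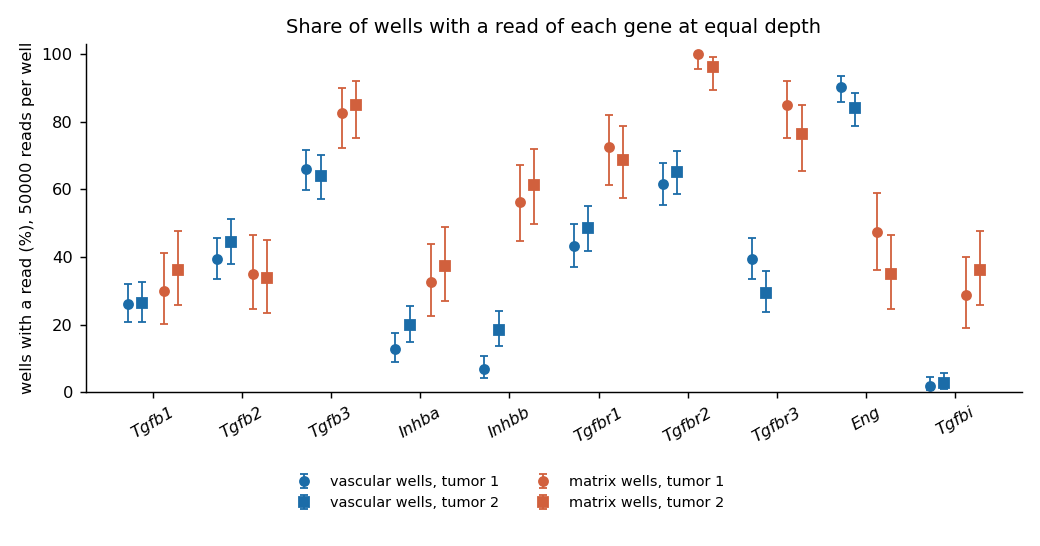
Share of wells with at least 1 read of each gene (vertical axis, percent), after every well was thinned to 50000 endogenous reads. Points are the classes in each tumor and bars are exact binomial 95% intervals. The intervals of the classes are far apart for *Inhbb*, *Tgfbr2*, *Tgfbr3*, *Eng* and *Tgfbi* in both tumors and overlap for *Tgfb1* and *Tgfb2*.

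The order of the genes changed between the classes. In vascular wells the mean levels over tumors (± SD, n = 2) ran from *Eng* (87.3 ± 14.2 RPKM) over *Tgfb3* (64.9 ± 12.1), *Tgfbr2* (33.7 ± 2.19) and *Tgfbr1* (24.1 ± 6.30) to *Tgfb2* (15.4 ± 0.05), *Inhba* (15.1 ± 6.83), *Tgfbr3* (9.01 ± 2.70), *Inhbb* (6.47 ± 5.50), *Tgfb1* (4.24 ± 0.36) and *Tgfbi* (1.20 ± 0.68). Of neighbours in this order, *Eng* and *Tgfb3*, *Tgfb2* and *Inhba*, *Inhba* and *Tgfbr3*, *Tgfbr3* and *Inhbb*, and *Inhbb* and *Tgfb1* were not separated by more than their SDs. In matrix wells *Tgfbr2* led with 237 ± 31.5 RPKM, followed by *Tgfb3* with 82.0 ± 0.98. *Inhba* (49.7 ± 37.2), *Tgfbi* (31.4 ± 14.7), *Tgfbr1* (30.5 ± 2.29), *Tgfbr3* (30.4 ± 4.60), *Inhbb* (28.0 ± 3.03) and *Eng* (26.8 ± 7.64) could not be ordered beyond their spread, *Inhba* also overlapped *Tgfb3*, and *Tgfb2* (10.1 ± 1.19) and *Tgfb1* (5.84 ± 1.49) were lowest. The median well had a read of 4 of the 10 genes in the vascular class of both tumors and of 6 in the matrix class of both tumors at equal depth.

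**Figure D4:**
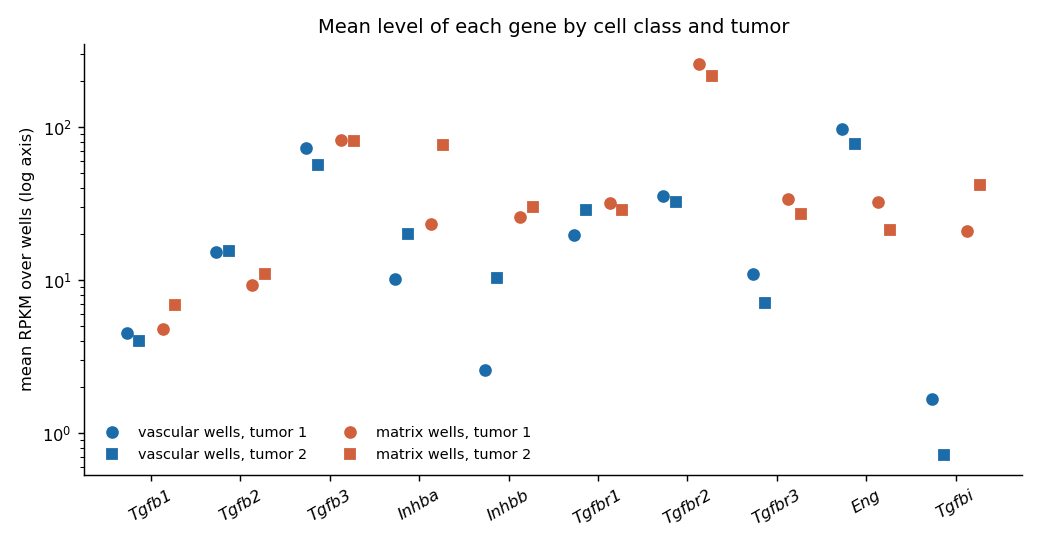
Mean RPKM of each gene over the wells of a class (vertical log axis), with vascular wells in blue and matrix wells in orange, and tumor 1 as circles and tumor 2 as squares. *Tgfbr2* in matrix wells, at 260 and 215 RPKM, is the highest value, and *Tgfbi* in vascular wells the lowest.

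In the 45 wells of neither class, *Tgfbr2* stood at 46.8 and 36.6 RPKM and *Tgfbr3* at 18.5 and 22.5 RPKM in tumors 1 and 2. The 20 wells with developmental markers and the other 25 differed in *Tgfbr3*, with 35.7 and 33.8 RPKM in the former, near the matrix wells, and 10.4 and 7.82 RPKM in the latter, near the vascular wells. Over all 45 wells *Eng* was at 41.1 and 11.3 RPKM, and its median well was at 0 in both tumors. In tumor 1 the 7 wells with developmental markers had no *Eng* read and the other 15 averaged 60.2 RPKM. In tumor 2 the averages were 12.6 and 9.61 RPKM. Over all 45 wells *Tgfb1* was at 1.08 and 2.09 RPKM from 14 and 30 reads, the lowest of the 3 classes. These wells are few and entered no test.

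The rest of the pathway was examined through lists of ligands, receptors, Smads, latency proteins, inhibitors and textbook targets, of which 57 genes were tested, 22 were higher in matrix and 2 in vascular wells, where 9.48% and 6.57% of all genes were. The counts were 29 and 3 with the tumor as a block (10.7% and 7.36% of all genes), and 36 and 1 with the ERCC reads as library size (33.1% and 4.55% of all genes). The medians below stand beside -0.04 for all genes. Of the signal carriers, *Smad3* was called, with 2.60 and 6.61 normalised CPM in vascular and 36.0 and 42.9 in matrix wells, a log2 fold change of 3.10 ± 0.52 (edgeR, adjusted p = 0.0152). The other 5 Smads tested did not pass, and *Smad2* (0.14), *Smad4* (0.35), *Smad1* (0.02) and *Smad5* (0.31) had small log2 fold changes, while that of the inhibitory *Smad7* was 1.10 (edgeR, adjusted p = 0.0718). None of the 4 other receptors tested was called by edgeR, where 1 had an unadjusted p under 0.05. Limma and edgeR with the ERCC reads as library size called 1, and DESeq2 none. They had log2 fold changes of 0.09 for *Acvr2a*, -0.21 for *Acvr2b*, 0.08 for *Acvrl1* and 0.81 for *Acvr1*. The tumors went opposite ways for *Acvr2a*, *Acvr2b* and *Acvrl1*. *Acvr2a* had 36.0 and 43.9 normalised CPM in vascular and 55.7 and 29.2 in matrix wells, and *Acvrl1* 73.7 and 57.3 against 92.3 and 45.8. So did *Smad2*, with 81.8 and 77.4 against 65.9 and 109. Of 3 other ligands tested, *Lefty1*, an antagonist of Nodal, was higher in matrix wells, with a log2 fold change of 2.05 ± 0.46 (edgeR, adjusted p = 0.0374). *Inha* (0.99) and *Gdf15* (-1.49) did not pass. *Gdf15* had 7.14 and 0.464 normalised CPM in vascular and 1.65 and 1.05 in matrix wells, so the tumors went opposite ways.

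Of 13 genes for latency and activation, 6 were higher in matrix and 1 in vascular wells (7 and 2 with the tumor as a block), with a median log2 fold change of 0.69. The family of latent TGF-beta binding proteins, several of which tether the latent ligand to the matrix, was called in both directions, 3 higher in matrix and 1 higher in vascular wells. *Ltbp2* (4.58), a member not known to bind the latent ligand, *Ltbp1* (2.64) and *Ltbp3* (1.74) were higher in matrix wells, as was *Emilin1* (3.21), an elastic fibre protein that restrains the release of TGF-beta. *Ltbp4* had 521 and 476 normalised CPM in vascular and 308 and 296 in matrix wells, a log2 fold change of -0.72 ± 0.15 (edgeR, adjusted p = 0.0311), which was -0.01 with the ERCC reads as library size.

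Of 11 inhibitors and negative regulators, 4 were higher in matrix wells (8 with the tumor as a block) and none lower, with a median log2 fold change of 1.08. *Fst* encodes follistatin, which binds and blocks activins, and it had 3.24 and 0.483 normalised CPM in vascular and 55.0 and 128 in matrix wells, a log2 fold change of 5.61 ± 1.00 (edgeR, adjusted p = 0.0186). *Pmepa1* (3.00) and *Skil* (1.55), which dampen Smad signalling, were also higher.

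Of 20 textbook targets, 10 were higher in matrix wells and 1 was lower (12 and 1 with the tumor as a block), with a median log2 fold change of 1.73. The largest changes among those called were in *Cdkn2b* (4.99), a cell cycle inhibitor, in *Lox* (4.40), which cross-links collagen, and in *Col1a1* (3.04), a chain of type I collagen. *Acta2*, the contractile smooth muscle actin, had 4832 and 3553 normalised CPM in vascular and 1100 and 1666 in matrix wells, a log2 fold change of -1.60 ± 0.27 (edgeR, adjusted p = 0.0162), and it stayed called, at -0.89, with the ERCC reads as library size (edgeR, adjusted p = 0.0398). Collagens also belong to the matrix program by which such cells are recognised, so this list is not independent of the split into classes. The same limit holds for matrix genes of the other lists, such as *Ltbp1*, *Ltbp2*, *Ltbp3* and *Emilin1*, and for the counts over all lists.

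**Figure D5:**
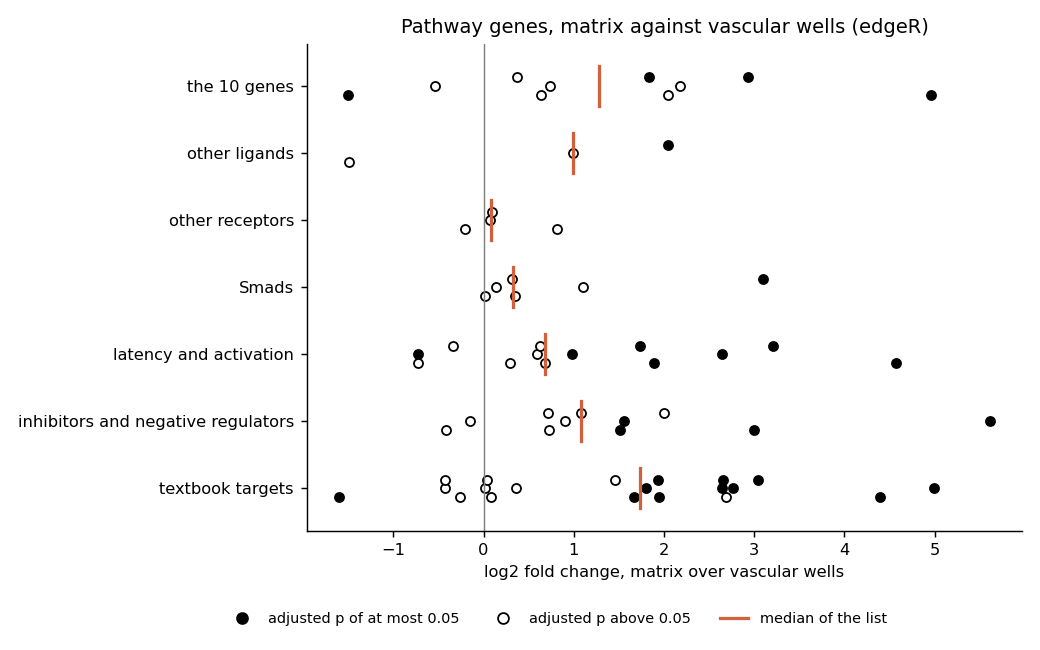
Log2 fold change in matrix over vascular wells (horizontal axis) for the 10 genes and for the 6 lists of pathway genes. Each point is 1 gene, filled where the edgeR adjusted p was at most 0.05, and the orange line is the median of a list. Among the Smads and other receptors, *Smad3* is at 3.10, *Smad7* at 1.10 and *Acvr1* at 0.81 and the rest are near 0, and the textbook targets spread from -1.60 to 4.99.

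Within the vascular class, 45 wells (24 and 21) carried at least 4 of 8 cell cycle markers and were compared with the other 469. None of the 10 genes was called, where 1.69% of 11273 genes tested were (190 genes, edgeR, adjusted p of at most 0.05). The tumor as a block raised the count to 289 genes and again called none of the 10. At an unadjusted p under 0.05, edgeR counted 1 of the 10, *Tgfbi*, and DESeq2 and limma called none of the 10 at an adjusted p of 0.05. Of the 58 genes tested from the pathway lists edgeR also called none, with 6 at an unadjusted p under 0.05. DESeq2 called 2, limma 1 and edgeR with the ERCC reads as library size 8 of them, where 8.75%, 8.55% and 16.1% of all genes were called. *Tgfbr2* had 204 and 187 normalised CPM in non-cycling and 174 and 171 in cycling wells, and *Eng* had 406 and 333 against 352 and 341. These differences were small, at -0.18 ± 0.18 and -0.09 ± 0.18 on the log2 scale. The remaining log2 fold changes that did not pass were 0.66 ± 0.57 for *Tgfb1*, -0.08 ± 0.37 for *Tgfb2*, 0.42 ± 0.19 for *Tgfb3*, -0.07 ± 0.28 for *Tgfbr1* and -0.65 ± 0.31 for *Tgfbr3*. The activin chains had the lower values in cycling wells of both tumors, with 22.3 and 37.1 against 10.5 and 14.5 normalised CPM for *Inhba* and a log2 fold change of -1.25 ± 0.51 (edgeR, adjusted p = 0.34). *Inhbb* rested on 3 and 43 reads in the cycling wells, with 13.7 and 60.8 normalised CPM in non-cycling and 0.476 and 8.78 in cycling wells. The log2 fold change was -3.03 ± 1.39 (edgeR, adjusted p = 0.395) and ran from -7.13 to -0.31 over the alternatives. The ratio in tumor 1 was 0.0342, with an interval over reads of 0.00704 to 0.100. Its 3 cycling reads lay in 1 well. An interval over reads takes the reads of a well as independent and is too narrow. *Inhbb* was read in 4.17% and 14.3% of the cycling and in 8.23% and 20.8% of the non-cycling wells. *Tgfbi* had 1 read in the cycling wells of each tumor, for ratios of 0.0324 (0.000817 to 0.182) and 0.0754 (0.00189 to 0.428). These intervals over reads have the same limit. A single well held 57.9% and 49.1% of the non-cycling reads, and the share of wells with a read was 4.17% and 4.76% in cycling and 2.47% and 3.54% in non-cycling wells. When the ERCC reads set the library size, the median of all genes moved from -0.02 to 0.76 and *Tgfb3* was called, with a log2 fold change of 1.20 (edgeR, adjusted p = 0.0182).

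Across the wells of a class the rank correlations between the genes were weak. The share of wells with a read differed widely, from 16 (*Tgfbi*) to 449 (*Eng*) of the 514 vascular wells. In the 168 matrix wells it ran from 57 (*Tgfbi*) to 163 (*Tgfbr2*). Where many wells have no read of a gene, a weak correlation cannot show that genes vary independently. The highest rank correlations of log2(RPKM + 1) between members were 0.32 for *Tgfbr2* and *Tgfbr3* over the 168 matrix wells and 0.30 for *Tgfb2* and *Tgfb3* over the 514 vascular wells. The genes of a well share its library and depth, and in vascular wells *Eng* (0.32), *Tgfb3* (0.29), *Tgfbr2* (0.28), *Tgfb2* (0.24) and *Tgfb1* (0.22) correlated with the reads of the well. Of all genes with a mean of at least 1 RPKM, those closest to *Tgfb2* in vascular wells were *Pdlim1* (0.38) and *Acta2* (0.37), and *Acta2* (0.37) was also among the 2 closest to *Tgfb3*. In matrix wells the closest to *Tgfbr2* were *Sulf1* (0.51) and *Igfbp6* (0.49), to *Tgfbr3* *Pdgfra* (0.48) and *C1ra* (0.43), and to *Inhba* *Flna* (0.44) and *Acta2* (0.40). With *Inhba*, *Flna* and *Acta2* stood at 0.36 and 0.25 in tumor 1 and at 0.51 and 0.51 in tumor 2. The closest to *Tgfbi* were *Podnl1* (0.40) and *Igfbp3* (0.39), which stood at 0.63 and 0.62 in tumor 1 and at 0.17 and 0.19 in tumor 2.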

How the data were processed

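The authors deposited, for 768 wells, whole-number read counts per RefSeq gene (reads were aligned with STAR to mm10) and RPKM values from the same reads. The 24490 mouse genes stand beside 92 ERCC spike-ins. Wells were matched to tumors by their plate, and 0 columns were left unused. The 10 genes, the lists and the tests were chosen with earlier results of these data known. Every member was named in every comparison, and from each pathway list the 3 largest called changes in each direction, with the option of naming a list whole where at most 6 genes were tested. *Ltbp3* was named outside this rule, after its value was seen. Counts were summed per class and tumor, giving 4 libraries, from 19823531 to 54828215 reads for matrix against vascular. A mean RPKM of 1 was the minimum for a gene to be tested, which was done with edgeR 4.0.16 (TMM, glmQLFit, glmQLFTest, no covariate), with Benjamini-Hochberg adjustment over all genes tested. DESeq2 1.42.0 and limma 3.58.1 were alternatives. Classes of a tumor come from the same mouse, and their deviations from the class means correlated by 0.152 (by 0.128 for cycling against non-cycling). Wells were thinned to 50000 reads, which left out 31 vascular and 8 matrix wells. The class limit was set on measured *Rgs5* and *Dcn*, so p-values do not bear on whether the classes exist. Code was tested on simulated data. Promoter windows are RefSeq's (GRCm38.p6).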

Additional observations from a re-analysis of the deposited data

Results flagged for a closer look

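In the 41 wells under 10000 endogenous reads, which entered no comparison, 4 of the 10 genes had more reads than the 3 that a count of 0 allows. *Tgfb3* had 45 reads, in 6 wells, *Tgfbr2* had 13, *Eng* had 5 and *Tgfbr3* had 4. For cycling against non-cycling vascular wells, the tumors moved in opposite directions for *Tgfb2*, with a log2 fold change of 0.43 in tumor 1 and -0.76 in tumor 2, and for *Eng*, with -0.207 and 0.0201. With 1 library per class and tumor, these differences between the tumors were not tested.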

How the results depend on the processing

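In matrix against vascular wells, *Tgfbr2*, *Tgfbr3* and *Tgfbi* were called under all 16 alternatives at an adjusted p of 0.05, and *Eng* under 15, the exception being the ERCC reads as library size. The count of genes called was 4377 with the ERCC reads as library size, 2903 with DESeq2 and 3653 with limma on mean log2(RPKM + 1), against 1866, and the count of members was 8, 7 and 8, against 4. All 3 added *Inhba*, *Inhbb* and *Tgfbr1*, the ERCC reads and limma also *Tgfb3*, and the ERCC reads also *Tgfb1*. At the study's adjusted p of 0.001 there were 170 genes and 1 member, *Tgfbr2*. *Tgfb2* turned to 0.17 with the ERCC reads. With the tumor as a replicate block 2101 genes (18.1%) and 6 members were called.

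In cycling against non-cycling vascular wells, 190 genes were called, 289 with the replicate block, 1810 with the ERCC reads, 948 with DESeq2, 964 with limma, 313 without the filter on genes and 0 at 0.001. The ERCC reads turned *Tgfb2* (0.68), *Tgfbr1* (0.71), *Tgfbr2* (0.60), *Tgfbr3* (0.14) and *Eng* (0.69), and called 1 member, where 16.1% of all genes were called. Limma turned *Tgfb2* (1.02), *Tgfbr1* (0.12) and *Tgfbr2* (0.38). *Tgfb2* also turned with every well scaled to the same total (0.14) and without wells holding *Epcam*, *Pecam1* or *Ptprc* reads (0.0662). *Tgfbr1* turned with at least 2 cell cycle markers (0.0226), and *Tgfb3* without the *Tgfb3* reads of its highest wells (-0.0422). The last alternative was chosen after seeing the data, as was leaving out wells with developmental markers. The cause was not tested. The block changed no other call of the 10 genes. Leaving out a tumor leaves no residual spread, and gave *Tgfb2* values of -0.76 to 0.43 and *Eng* values of -0.207 to 0.0201. In matrix against vascular wells it gave 1.16 to 2.40 for *Inhba* and 1.57 to 3.53 for *Inhbb*, which had the largest SEs there (0.66 and 0.68). With 2 tumors, a difference that missed the threshold does not show equal levels.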
